A study of Jaculus jaculus with 29 samples.

Results

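Avp and Oxt, the genes of the vasopressin and oxytocin precursors, were described in 29 RNA-seq libraries of the supraoptic nucleus of the lesser Egyptian jerboa, Jaculus jaculus. They were picked by identity and not by their values: Avp as gene ENSJJAG00000024270, and Oxt by its position on chromosome 8, bases 82190535 to 82191331. Both were found, so they are 2 of the 29170 genes in the count table. Control animals (10 libraries) could drink freely, Dehydrated animals (10 libraries) had restricted water for 11 days, and Rehydrated animals (9 libraries) had restricted water for 7 days and then drank freely for 3 days. All animals were housed singly and ate dry pellets, and strain and age are not given in the sources used here. No group was sampled at the end of the 7 days, so the Rehydrated animals differ from the Dehydrated ones both in the length of restriction and in the water that followed it.

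Vasopressin is the antidiuretic hormone, which makes the kidney retain water, and oxytocin is known for milk ejection and labour and, in rodents, for promoting sodium loss. Magnocellular neurons of the supraoptic nucleus make each hormone as a precursor that also holds a neurophysin, the carrier protein of the hormone in its secretory granules. The granules travel down the axons to the posterior pituitary, where the hormones enter the blood. Most of these neurons make mainly 1 of the 2 hormones, and osmotic stress is known to activate both kinds in the rat.

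In the annotation used for the counts (Ensembl genes on the mJacJac1 assembly), Avp lies on chromosome 8 at 82219571 to 82221324 on the minus strand and Oxt at 82190535 to 82191331 on the plus strand. The genes lie tail to tail with 28239 bp between their ends. The Avp model has 4 exons that sum to 489 bp, the first of them 3 bp long, and the Oxt model has 3 exons that sum to 453 bp. Both lengths are multiples of 3, as coding length without UTRs would be, so reads in the UTRs may not have been counted. Of all gene models 49.5% have such a length, so this trait alone does not settle it. An exon of 202 bp, the third of Avp and the middle one of Oxt, stands where the main neurophysin exon lies in mammals. That exon is known to be nearly identical between the genes in mammals, so reads wholly inside it can match both, and how many were lost or shared was not tested. The Avp gene is described in the authors' deposited table as oxytocin-neurophysin 1 although its symbol is Avp, and the RefSeq table of the same assembly lists the locus as LOC101606589, an identifier without a gene symbol.

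Total counts per library ran from 10797577 to 18856620, with a median of 16178717, and 17558 genes had enough counts to be tested. Control M01 stood apart on the first principal component of all tested genes. Dehydrated M02, Control M05 and Control F03 have a name whose letter is not that of their sex label, and the label was used for these 3. The labels number the animals within each group but do not give litters or batches, so p-values rest on the spread between these samples alone. In the count header a running number places libraries with M in the name before those with F. Within each letter it places Control first, then Dehydrated, then Rehydrated. Only Rehydrated M04 departs from this order and comes last. What that number stands for is not given, and whether its order bears on the differences between groups was not tested. Avp counts per library ran from 3388 to 88214 and Oxt counts from 2689 to 26204, so that counting error was at most 1.72% and 1.93% of the value.

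Both precursors were among the most abundant transcripts of the punches. By mean CPM (counts scaled to a common library size, with TMM factors) per kb of gene model, Avp ranked 11 of 29170 genes in Control, 3 in Dehydrated and 5 in Rehydrated. Oxt ranked 10, 10 and 11. In single libraries Avp ranked from 4 to 36 in Control and from 1 to 5 in Dehydrated. It ranked from 3 to 88 in Rehydrated, and Oxt ranked from 3 to 119 over all 29 libraries.

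Avp mRNA was higher after 11 days of restriction, while Oxt mRNA showed no change that could be detected. Avp ran from 359 CPM (Control M04) over a median of 836 to 2423 (Control M05) in Control. In Dehydrated it ran from 1512 CPM (Dehydrated F07) over a median of 3188 to 5179 (Dehydrated F05). All 10 Dehydrated libraries lay above the Control median and 7 above the highest Control library. The groups overlapped only through Control M05, since the other 9 Control libraries lay below the lowest Dehydrated one. Avp rose 3.50-fold, a log2 fold change of 1.81 (SE 0.37, 95% confidence interval 1.05 to 2.56), with an edgeR quasi-likelihood adjusted p of 0.0388 (Benjamini-Hochberg over 17558 genes). In this comparison 0.114% of the genes tested rose (20 of 17558) and 0.0114% fell (2), 0.125% in either direction, and Avp had rank 18 by p.

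**Figure D1:**
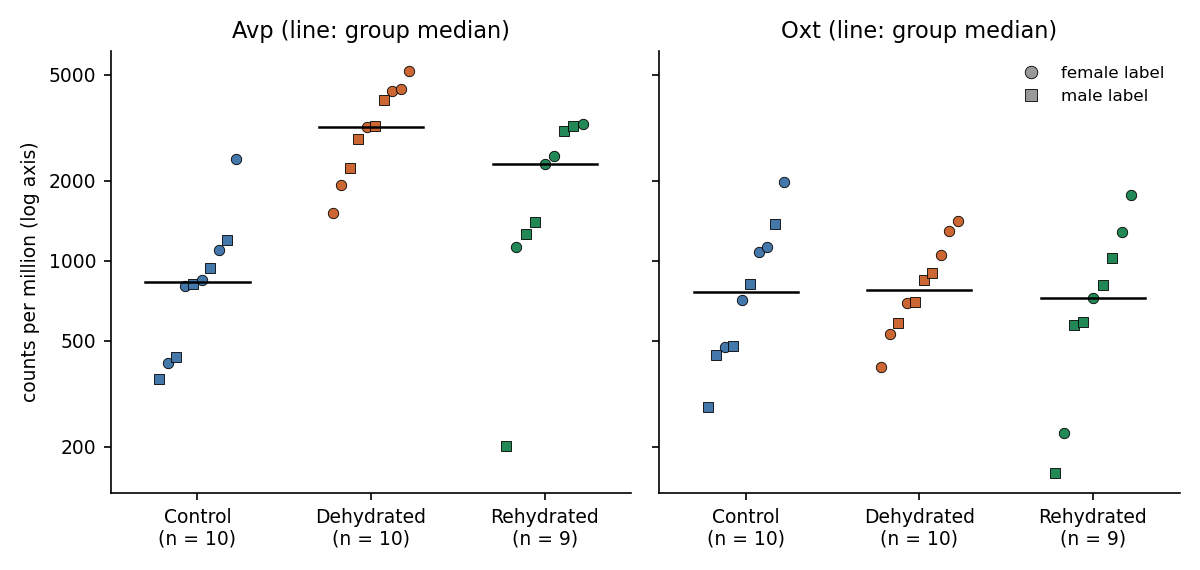
Avp (left) and Oxt (right) in CPM on a log axis, 1 point per library, by group (n = 10, 10 and 9), with circles for female and squares for male labels and a line at each group median. The Avp medians are 836, 3188 and 2305 CPM in Control, Dehydrated and Rehydrated, and the Oxt medians are 765, 774 and 723.

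The adjusted p for Avp lay close to the threshold of 0.05. When each library was left out in turn, the log2 fold change stayed between 1.71 and 2.07 and the unadjusted p between 3.1e-06 and 1.15e-04, while the edgeR adjusted p lay between 0.00681 and 0.106. The call was lost without any 1 of 19 libraries. These were Control F01, F02, F05, F06, M01, M03, M04 and M06, Dehydrated F04, F05, F06, M05, M06, M08 and M09, and Rehydrated F03, F04, F06 and M06. Among them the adjusted p was lowest without Dehydrated M08 (0.0503) and highest without Dehydrated M06 (0.106), and without Control M01 it was 0.0879. It held without any 1 of the other 10, with an adjusted p of 0.00681 without Rehydrated M08 and 0.0116 without Control M05. The authors' deposited table for the same comparison gives Avp a log2 fold change of 1.84 (SE 0.34) and an adjusted p of 1.17e-04, and Oxt 0.10 and an adjusted p of 1.00. DESeq2 on the counts without Control M01 gave 1.84 and 0.10 as well, and which libraries the authors' fit held was not checked.

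Oxt ran from 283 CPM (Control M04) over a median of 765 to 1975 (Control F01) in Control. In Dehydrated it ran from 397 CPM (Dehydrated F03) over a median of 774 to 1413 (Dehydrated F05). Of the 10 Dehydrated libraries 5 lay above the Control median and none above the highest Control library, so the groups overlapped almost wholly. The log2 difference was -0.07 (95% confidence interval -0.79 to 0.64, edgeR adjusted p = 0.972). The interval leaves room for a change of up to 1.56-fold upwards or 0.580-fold downwards.

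The balance between the precursors within each library, log2 of Avp over Oxt per kb of gene model, separated the groups more clearly than the level of Avp. This ratio needs no scaling factor, and cells in a punch that make neither transcript do not enter it. In Control it ran from -0.96 (Control F01) over a median of -0.03 to 1.06 (Control M05), and the mean was -0.01 ± 0.63 (SD, n = 10). In Dehydrated it ran from 1.19 (Dehydrated M02) over a median of 1.88 to 2.53 (Dehydrated F06), with a mean of 1.86 ± 0.38 (SD, n = 10). All 10 Dehydrated libraries lay above the highest Control library. Avp thus made up 34% to 67.6% of the summed per-kb level of both precursors in Control and 69.5% to 85.3% in Dehydrated. The geometric mean of the ratio was 3.67-fold that of Control, a log2 difference of 1.88 (SE 0.23). The two-sided permutation test gave p = 2e-05 (adjusted over 3 comparisons 6e-05). The difference stayed between 1.77 and 1.99 when each library of these groups was left out.

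**Figure D2:**
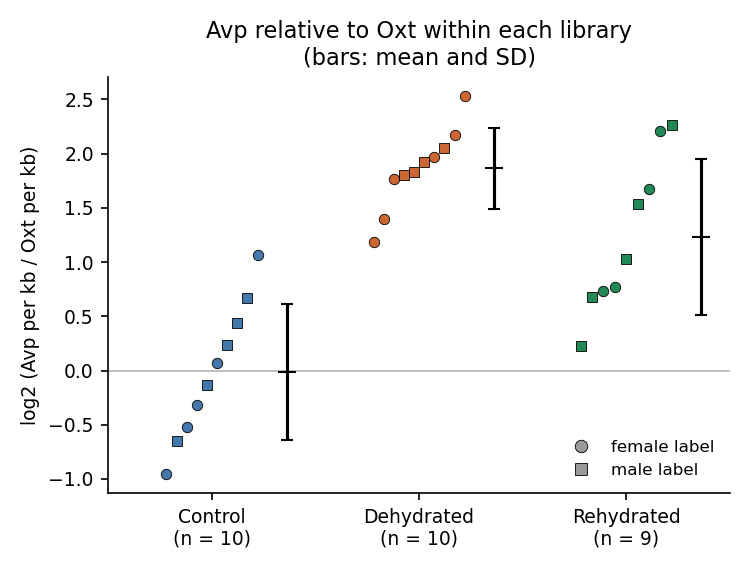
The log2 ratio of Avp to Oxt per kb of gene model, 1 point per library by group, with circles for female and squares for male labels, and bars for the group mean and SD. The 10 Dehydrated libraries lie between 1.19 and 2.53, above the 10 Control libraries at -0.96 to 1.06, and the 9 Rehydrated libraries span from 0.22 to 2.27.

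After 3 days of free water the level of Avp lay between those of the other groups, and in the edgeR test across all genes neither difference passed. In Rehydrated, Avp ran from 201 CPM (Rehydrated M08) over a median of 2305 to 3268 (Rehydrated F06). Of the 9 libraries 8 lay above the Control median, 4 above the highest Control library and 4 below the lowest Dehydrated library, while Rehydrated M08 was below every other library of the series. Against Control the log2 difference was 1.16 (95% confidence interval 0.40 to 1.92, p = 0.0042, edgeR adjusted p = 0.553), and without Rehydrated M08 it was 1.30 (edgeR adjusted p = 0.524). In edgeR no gene of 17558 passed in this comparison (0%), 1313 had an unadjusted p under 0.05, and DESeq2 called 16 genes (0.0815% of those it tested), with an adjusted p of 0.141 for Avp. Against Dehydrated the log2 difference was -0.65 (95% confidence interval -1.41 to 0.11, p = 0.0924, edgeR adjusted p = 1.00), where 0.0228% of genes fell (4 of 17558). Both comparisons with Control share the same Control libraries.

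Oxt in Rehydrated ran from 159 CPM (Rehydrated M08) over a median of 723 to 1776 (Rehydrated F06), and 4 of 9 libraries lay above the Control median. Its log2 difference was -0.11 against Control (95% confidence interval -0.84 to 0.63, edgeR adjusted p = 0.953) and -0.04 against Dehydrated (-0.77 to 0.70, edgeR adjusted p = 1.00). Rehydrated M08 was thus lowest in both precursors, at 0.0197% of its counts for Avp and 0.0156% for Oxt.

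The ratio in Rehydrated ran from 0.22 (Rehydrated M08) over a median of 1.03 to 2.27 (Rehydrated M01), with a mean of 1.24 ± 0.72 (SD, n = 9). All 9 libraries lay above the Control median. In 5 of them (Rehydrated M08, M06, F04, F06 and M04) the ratio was within the range of Control and below the lowest Dehydrated library. In the other 4 (Rehydrated M05, F03, F05 and M01) it was above the highest Control library and within the range of Dehydrated. The geometric mean of the ratio was 2.37-fold that of Control, a log2 difference of 1.25 (SE 0.31). The two-sided exact permutation test gave p = 0.00101 (adjusted p = 0.00151). Against Dehydrated the geometric mean was 0.647-fold, a log2 difference of -0.63 (SE 0.27). The same exact permutation test gave p = 0.028 (adjusted p = 0.028).

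Leaving out 1 library kept the call against Control in all 19 cases, with log2 differences of 1.12 to 1.37. Against Dehydrated the call was kept in 14 of 19 cases, with differences of -0.76 to -0.50. It was lost without Rehydrated F06 (exact permutation p = 0.0509), Dehydrated F06 (0.0512), Rehydrated F04 (0.0515), Rehydrated M06 (0.0528) or Rehydrated M08 (0.0586).

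Both sexes were in each group, and no difference between them in either precursor passed in the edgeR model. Female libraries numbered 5, 6 and 4 in Control, Dehydrated and Rehydrated, and male libraries 5, 4 and 5. Avp was 1117 ± 770 CPM in female and 752 ± 354 CPM in male Control libraries (SD, n = 5 each), and Oxt was 1073 ± 572 and 679 ± 434 CPM. Over all groups Avp was higher in females by 0.35 on the log2 scale (SE 0.30) and Oxt by 0.52 (SE 0.29), both with an edgeR adjusted p of 0.993. In this comparison 0.0342% of genes passed (6 of 17558). With the letter of the library name in place of the sex label, the differences were 0.09 and 0.35.

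Avp rose with restriction by 1.62 in the female and 2.04 in the male libraries on the log2 scale in a model of group by sex, with an unadjusted p of 0.00443 and 0.00123 and an edgeR adjusted p of 1.00 and 0.200. The test of the difference itself gave -0.42 (SE 0.74, 95% confidence interval -1.94 to 1.11, edgeR adjusted p = 0.929), and for Oxt -0.42 (SE 0.72, edgeR adjusted p = 0.927). The log2 ratio of Avp to Oxt rose by 1.97 in the female libraries (6 against 5, two-sided exact permutation p = 0.00216) and by 1.79 in the male libraries (4 against 5, exact permutation p = 0.00794). Among libraries with F in the name the ratio rose by 2.22 and among those with M by 1.53 (5 against 5 in each, exact permutation p = 0.00794). For Rehydrated against Control the ratio differed by 1.48 in females and 1.04 in males (exact permutation p = 0.0317 and 0.0397, adjusted over 3 comparisons 0.0476 and 0.0595), so that males alone did not pass. It differed by 1.6 in F-named and 0.91 in M-named libraries (exact permutation p = 0.00794 and 0.103, adjusted 0.0119 and 0.151), and M-named libraries alone did not pass.

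Levels of both precursors varied widely between animals of the same group. The coefficient of variation of Avp was 63.9%, 36.4% and 53.4% in Control, Dehydrated and Rehydrated, and that of Oxt 59.6%, 39.2% and 64.0%, far above the counting error. The SD of log2 CPM within groups was 0.92 for Avp and 0.87 for Oxt against a median of 0.25 over 15604 genes, larger than in 99.3% and 99.1% of them. From bulk tissue, fewer cells of a type and less RNA per cell cannot be told apart, and the same holds for how much of the nucleus a punch took in.

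Animals with more Avp mRNA also had more Oxt mRNA. Within Control the log2 CPM of the precursors correlated with r = 0.73 and rho = 0.79 (n = 10, permutation p = 0.0166 and 0.00889). Within Dehydrated r was 0.79 and rho 0.78 (n = 10, permutation p = 0.00753 and 0.0107), and within Rehydrated 0.83 and 0.80 (n = 9, exact permutation p = 0.00332 and 0.0138). Over all 29 libraries, each minus its group mean, r was 0.79 and rho 0.76 (permutation within groups, p = 2e-05 for each). Adjusted over these 4 relations, p was 8e-05 over all libraries and at most 0.0166 in the groups. In 23 of 29 libraries both precursors lay on the same side of their group medians, 10 of 10 in Control, 8 of 10 in Dehydrated and 5 of 9 in Rehydrated. In Rehydrated, F04 was itself the median of Avp and F03 that of Oxt, so these libraries could not be counted as on the same side.

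Without the 2 libraries farthest from the median of Avp, r was 0.75 over all groups and 0.72 in Control (exact permutation p = 0.0467). It was 0.62 in Dehydrated (exact permutation p = 0.103) and 0.47 in Rehydrated (exact permutation p = 0.279), so the relation in these groups rested in part on Dehydrated F07 and F03 and on Rehydrated M08 and F05. Over all groups, leaving out each library in turn gave an r of 0.72 to 0.81, lowest without Rehydrated M08.

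**Figure D3:**
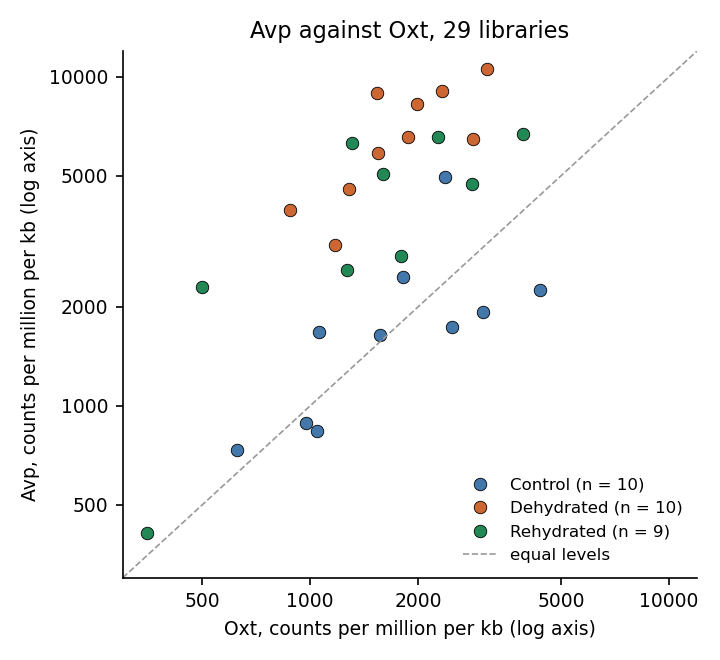
Avp against Oxt in CPM per kb of gene model, both on log axes, 1 point per library coloured by group, with a dashed line where the levels are equal. Within each group the levels rise together (r = 0.73, 0.79 and 0.83). The Dehydrated and the Rehydrated points all lie above the line, while Control points lie on both sides of it.

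The mean level of genes that mark the magnocellular lineage was related to Avp between animals, and its relation to Oxt did not pass after adjustment with all libraries. The list holds 5 transcription factors: Sim1, Otp, Pou3f2 and Arnt2, which are known to be needed for these neurons to form, and Sim2, a relative of Sim1. All 5 were detected, their summed level ran from 84.1 to 311 CPM in Control, 252 to 321 in Dehydrated and 194 to 318 in Rehydrated, and none passed the test in any comparison. Their mean log2 CPM, centred on group means, correlated with Avp at r = 0.54 and rho = 0.67 (29 libraries, permutation p = 0.00442 and 2e-04, adjusted over 10 relations 0.0414 and 0.002). With Oxt it was r = 0.43 and rho = 0.46 (permutation p = 0.0381 and 0.0202, adjusted 0.111 and 0.0505). Control M01, which had the 84.1 CPM, stood apart, and without it r was 0.75 for both Avp and Oxt (28 libraries). Without Control M01 and Rehydrated F05, the 2 libraries farthest from the median of these markers, r was 0.77 and 0.67. The members did not all behave alike: over the 28 libraries r with Avp and Oxt was 0.79 and 0.74 for Sim1 but -0.07 and 0.03 for Arnt2.

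With the mean of the lineage factors as a further covariate, Avp rose by 1.69 on the log2 scale in Dehydrated (edgeR adjusted p = 0.0542), and by 1.98 when Control M01 was also left out (edgeR adjusted p = 0.00307). Oxt differed by -0.15 and 0.21 in these fits, and neither passed. Rehydrated M08 and F05, which had the lowest Oxt levels of the series, also had the lowest mean of the lineage factors within their group.

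**Figure D4:**
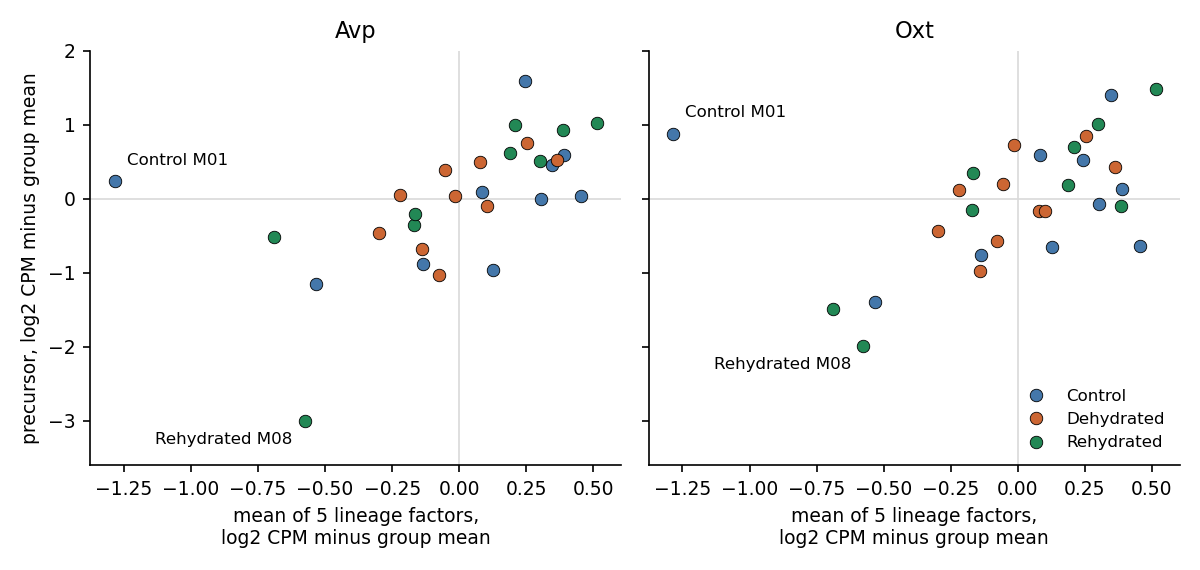
Avp (left) and Oxt (right) against the mean of 5 magnocellular lineage factors, each as log2 CPM minus the group mean, 1 point per library coloured by group. Control M01 lies far to the left of the other libraries, and without it both relations have r = 0.75.

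Markers of other cells the punch could hold were compared in the same way. The suprachiasmatic nucleus, which lies near and also makes vasopressin, was followed by 9 markers found by name in the table, whose summed level ran from 83.4 to 281 CPM in Control, 139 to 258 in Dehydrated and 125 to 226 in Rehydrated. None of the 8 tested passed in Dehydrated against Control, and Vip, its best-known peptide, was at 6.89 and 33.4 CPM (edgeR adjusted p = 0.0509). The mean of these markers correlated with Avp at r = 0.04 and rho = 0.03, and with Oxt at r = -0.07 and rho = 0.01 (29 libraries, permutation p = 0.859, 0.892, 0.735 and 0.979). Single members departed from this mean. Over the 28 libraries other than Control M01, r with Avp and Oxt was 0.49 and 0.64 for Prokr2 but -0.23 and -0.27 for Nms. No marker of this list was at 0 in every library, and its part in the rise of Avp was not tested.

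Oligodendrocyte markers were lower in Dehydrated for 7 of 7 genes, none of which passed, with a median log2 difference of -0.33 against -0.003 over all genes tested. In Rehydrated against Control 6 of 7 were lower, with a median of -0.45, and none passed. Their summed level ran from 2556 to 6512 CPM in Control, 2348 to 6270 in Dehydrated and 1136 to 8122 in Rehydrated. None of these markers was at 0 in every library. Within groups their mean correlated with Avp at r = 0.37 and rho = 0.37, and with Oxt at r = 0.25 and rho = 0.14 (permutation p = 0.118, 0.0612, 0.273 and 0.486). Their part in the difference in Avp was not tested.

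Other lists also leaned lower in Dehydrated against Control without a gene that passed. Endothelial markers were lower for 6 of 6 genes (median -0.10), and their summed level ran from 160 to 239 CPM in Control, 160 to 202 in Dehydrated and 155 to 262 in Rehydrated. Microglia markers were lower for 5 of 7 (median -0.35), with summed levels of 103 to 497, 118 to 186 and 124 to 224 CPM. Markers of other hypothalamic neurons were lower for 7 of 9 (median -0.20), with summed levels of 394 to 864, 301 to 690 and 324 to 620 CPM. None of the markers found in these 3 lists was at 0 in every library, and their part in the difference in Avp was not tested. Astrocyte markers leaned the other way, higher for 6 of 8 (median 0.09), and general neuron markers were higher for 5 of 8 (median 0.03). None of them passed.

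Astrocyte markers gave r = 0.17 with Avp and 0.20 with Oxt (rho 0.18 and 0.20, permutation p = 0.373, 0.313, 0.36 and 0.329). None of the relations of Avp or Oxt with the suprachiasmatic, oligodendrocyte and astrocyte lists passed after adjustment over the 10 relations (adjusted p of at least 0.122). Without the 2 farthest libraries r with Avp and Oxt was 0.21 and 0.10 for the suprachiasmatic, 0.31 and 0.00094 for the oligodendrocyte and 0.12 and 0.25 for the astrocyte markers.

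General neuron markers ran the other way as a mean of 8 genes, from which single members departed. Over the 28 libraries other than Control M01, r with Avp ran from -0.60 for Syt1 to -0.04 for Rbfox3. The mean of the markers correlated with Oxt at r = -0.50 and rho = -0.57 (29 libraries, permutation p = 0.00829 and 0.00251, adjusted 0.0414 and 0.0125). With Avp it was r = -0.39 and rho = -0.46 (permutation p = 0.0442 and 0.0162, adjusted 0.111 and 0.0505). Without Control M01 both had r = -0.52 (adjusted 0.0349). Without the 2 farthest libraries, Control M01 and Rehydrated M05, r was -0.49 for Oxt and -0.46 for Avp. With Rehydrated M08 also left out, r was -0.37 for Oxt (permutation p = 0.0704) and -0.29 for Avp (permutation p = 0.181). These relations thus rested in part on Rehydrated M08. Their summed level ran from 5166 to 7333 CPM in Control, 6004 to 6996 in Dehydrated and 5817 to 7693 in Rehydrated, none of the 8 passed, and none was at 0.

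The genes whose level between animals was most like that of Avp were ranked by Pearson r over the 28 libraries other than Control M01, each minus its group mean, among 12442 genes. This is a description of libraries that share their tissue pieces and depth. The 6 most like Avp were Casr, the calcium-sensing receptor (r = 0.81), Oxt (0.80), the transcription factor Sim1 (0.79), the sulfotransferase Chst8 (0.77), the transcription factor Otp (0.77) and the transcription factor Ebf3 (0.77). The 6 most like Oxt were Casr (0.83), Avp (0.80), the mitochondrial tryptophan tRNA synthetase Wars2 (0.75), Sim1 (0.74), the cadherin Cdh6 (0.73) and the intermediate filament Prph (0.71). The 99th percentile of r was 0.51 for both precursors. With Control M01 the r of Sim1 was 0.52 with Avp and 0.38 with Oxt, and that of Cdh6 with Oxt was 0.38, while Casr kept 0.81 and 0.80. Apart from Avp itself none of these genes passed the test in Dehydrated against Control.

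Other genes of the vasopressin and oxytocin system were read from 5 lists with 27 members, of which 25 had enough counts to be tested. In Dehydrated against Control 3 of the 25 rose and none fell, beside 0.114% and 0.0114% of all genes tested, and the median log2 difference of the lists was 0.08. These lists were chosen with earlier results on the same libraries known, so the count is no independent evidence of a direction. In Rehydrated against Control none of the 25 passed in either direction, and in Rehydrated against Dehydrated 1 fell.

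The receptors were low in the nucleus. The vasopressin receptor Avpr1a had a mean of 4.94 ± 1.54 CPM in Control against 4.35 ± 1.10 in Dehydrated (SD, n = 10 each), and the oxytocin receptor Oxtr at 9.37 ± 3.41 and 11.3 ± 2.69 CPM. Avpr1b and Avpr2 had too few counts to be tested. Lnpep, the membrane peptidase that cleaves both hormones, was at 67.1 ± 24.6 and 74.9 ± 9.31 CPM, and none of the 3 tested genes passed (smallest edgeR adjusted p = 0.774).

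Of 6 genes that process the precursors 1 rose. Pcsk1, a convertase that cuts prohormones within the granules, ran from 40.0 CPM (Control M01) over a median of 133 to 162 in Control. It ran from 111 CPM (Dehydrated F07) over a median of 341 to 490 (Dehydrated F05) in Dehydrated, where 8 of 10 libraries lay above the highest Control library. Dehydrated F07 and F05 were also the lowest and the highest Dehydrated library for Avp. The log2 fold change of Pcsk1 was 1.39 (SE 0.23, edgeR adjusted p = 0.00369). In Rehydrated it was at 136 ± 27.2 CPM (SD, n = 9), near the Control mean of 125 ± 37, and against Dehydrated it fell by 1.26 on the log2 scale (SE 0.23, edgeR adjusted p = 0.0411). Pam, which adds the amide that both hormones carry at their end, had 520 ± 64.5 CPM in Control against 618 ± 75.0 in Dehydrated and did not pass (edgeR adjusted p = 0.485). Pcsk2, Pcsk1n, Scg5 and Cpe, the other convertase, inhibitor, chaperone and carboxypeptidase of the list, differed by -0.15 to 0.04 and did not pass.

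Of 3 peptides stored with vasopressin 1 rose. Pdyn, the dynorphin precursor, ran from 45.7 CPM over a median of 60.6 to 92.2 in Control and from 76.4 CPM over a median of 129 to 207 in Dehydrated, where all 10 libraries lay above the Control median. Its log2 fold change was 1.13 (SE 0.18, edgeR adjusted p = 0.00369). Gal, the galanin precursor, was at 58.6 ± 29 and 48.5 ± 14.4 CPM and Apln, the apelin precursor, at 0.538 ± 0.307 and 0.907 ± 0.6 CPM (SD, n = 10 each), and neither passed. Of 3 peptides stored with oxytocin none passed: Cck (log2 difference -0.13), Crh (0.15) and Penk (-0.24), with edgeR adjusted p values of at least 0.806.

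Of 10 regulators of these genes or of hormone release 1 rose. Caprin2, an RNA-binding protein known in the rat to act on vasopressin mRNA, ran from 24.6 CPM over a median of 31.7 to 39.7 in Control. In Dehydrated it ran from 31.7 CPM (Dehydrated F07) over a median of 57.5 to 130 (Dehydrated F04), and 8 of 10 libraries lay above the highest Control library (log2 fold change 0.98, SE 0.18, edgeR adjusted p = 0.0109). Creb3l1, a transcription factor known to act on the vasopressin gene in the rat, had 22.5 ± 3.98 CPM in Control against 23.8 ± 1.84 in Dehydrated and did not pass (edgeR adjusted p = 0.851). Rasd1, Creb1, Crtc1, Esr2, Rora, Nr2f1, Nr2f2 and Cd38 differed by -0.17 to 0.49 on the log2 scale and did not pass (edgeR adjusted p of at least 0.798).

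**Figure D5:**
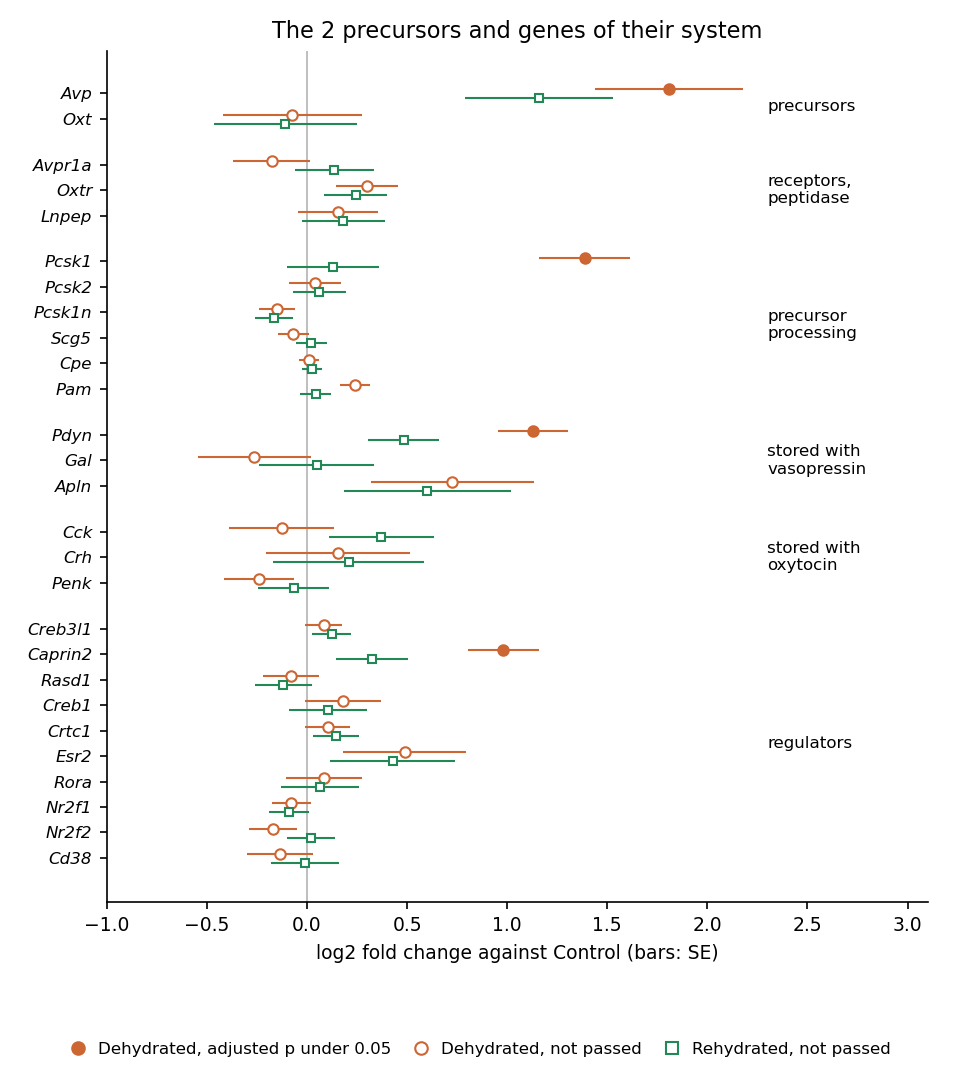
Log2 fold changes against Control with their SE for Avp, Oxt and the 25 tested genes of their system, grouped by role, for Dehydrated (circles) and Rehydrated (squares). Filled circles mark an edgeR adjusted p under 0.05, which Avp (1.81), Pcsk1 (1.39), Pdyn (1.13) and Caprin2 (0.98) reached in Dehydrated. None of the Rehydrated values passed.

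The rise of Avp was not seen in the genes around it on chromosome 8. Within 100 kb of Avp and Oxt, Ptpra, Mrps26, Ubox5, Fastkd5 and an unnamed gene (ENSJJAG00000035391) had enough counts to be tested. They differed by -0.09 to 0.04 on the log2 scale in Dehydrated against Control, and none passed (edgeR adjusted p of 0.855 to 0.966). Mrps26, the nearest tested gene on the side of Oxt, had 55.8 CPM in Control against 54.4 in Dehydrated, and Ubox5, the nearest on the side of Avp, at 21 and 20.2 CPM.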

How the data were processed

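RNA was taken from supraoptic nucleus punches (12 bilateral punches, 1 mm core, 100 µm frozen sections), per the labels' protocols. The deposited counts are whole fragments per gene, made by featureCounts 1.6.2 as read pairs on Ensembl genes of mJacJac1 with no strand or multi-mapping option, per the file header, which also gives each gene model's length. The alignment files named in that header carry the word Rsubread, a package that aligns reads, and its version and settings are not given there. In the deposited result tables the authors give log2 fold changes with SE, and p-values with adjusted p-values, for 17583 genes; DESeq2 is among the tools that the submitters' processing notes list. A further 56 columns of per-library values in these tables were not used here. Gene names came from these tables (9699 genes) or from RefSeq genes of the same assembly whose spans overlap by at least 0.5 of both (5594 genes).

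Tests used edgeR 4.0.16 under R 4.3.3 (filterByExpr on group, TMM, robust quasi-likelihood fit with group and sex over all 29 libraries, Benjamini-Hochberg, threshold 0.05). The mean of log2 (CPM + 0.5) served for correlations, tested with 100000 permutations or exactly for groups under 10, with numpy 2.4.6, pandas 2.3.3 and, for figures, matplotlib 3.10.9 under Python 3.11.15. DESeq2 1.42.0 was an alternative. Named genes are Avp and Oxt, the members of the 5 lists, the 6 genes most like each precursor among genes averaging at least 1 log2 CPM, all genes within 100 kb and defining markers. The members, lists and tests were chosen with earlier results of these data known. Alternatives were other size factors, filters, covariates and tools, a replicate block, each sex alone and each library left out. Others chosen after seeing the data split or left out libraries by name letter, added the lineage factors as covariate, or ran DESeq2 without Control M01. No library was a duplicate of another of its group: chi-square over degrees of freedom ran from 8.52 to 152 for the 126 pairs of libraries that share a group. Pairs from different groups were not compared in this way. The scripts were tested on simulated data.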

Additional observations from a re-analysis of the deposited data

Results flagged for a closer look

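Avp in Control M05 was 2423 CPM, far above the other 9 Control libraries, whose highest value was 1202 CPM: the gap to the nearest library took 0.592 of the range of the group, against a critical value of 0.466 for 10 libraries. On the log2 scale the gap took 0.367 of the range, below that value. Chance gives a gap over the critical value in about 1 in 20 groups, and 9 groups of values were looked at. Control M05 carries a female label and M in its name, its Oxt was 1075 CPM and its log2 ratio of Avp to Oxt was 1.06. Without it the log2 fold change of Avp in Dehydrated was 2.07 in place of 1.81, and that of the ratio 1.99 in place of 1.88.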

How the results depend on the processing

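Of 409 alternatives over 27 results, 340 kept their direction and their side of the threshold. The rise of Avp in Dehydrated kept its direction in every setting run and lost its call with no filter on low counts (1.81), the name letter in place of sex (1.81), females alone (1.62), males alone (2.04), F-named (2.00) or M-named libraries alone (1.64), or the lineage factors as covariate (1.69); with each library left out it lay between 1.71 and 2.07, and DESeq2 gave an adjusted p of 5.16e-05. The ratio of Avp to Oxt lost its call for Rehydrated against Control in males (1.04) and M-named libraries (0.91). For Rehydrated against Dehydrated it lost it in females (-0.49), males (-0.76), F-named (-0.62) and M-named libraries (-0.61), and ran from -0.76 to -0.50 with each library left out. The splits hold 4 to 6 libraries a group, and the cause was not tested.

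A replicate block by shared names gave a log2 fold change of 2.28 for Avp in Dehydrated (edgeR adjusted p = 0.0853), 0.35 for Oxt in Dehydrated and 0.10 in Rehydrated. The paired ratio was 1.71 over 5 shared names (exact p = 0.0625, the smallest that 5 pairs allow) and -0.92 over 7 for Rehydrated against Dehydrated (exact p = 0.0469, adjusted 0.0625). The deviations of 19 same-named pairs correlated at -0.13 to 0.12, and 1 of them was over 0.1, so the names were not taken to pair the samples.

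Oxt lay near 0 and changed sign in some settings without passing in any. In Dehydrated it was 0.16 in males, 0.24 in M-named libraries, 0.10 with DESeq2 without Control M01 and 0.21 with the lineage factors as covariate without Control M01, and -0.16 to 0.10 with each library left out. In Rehydrated against Control it was 0.0736 and 0.33 in the last 2 of these fits, and -0.30 to 0.0739 with each library left out. Against Dehydrated it was 0.16 in females, 0.29 in F-named libraries, 0.018 without the 3 libraries whose letter is not their sex label and 0.13 in the last fit, and -0.23 to 0.10 with each library left out. Without Control M01 the r of Oxt with the suprachiasmatic markers was 0.0102, and those of Oxt with the lineage factors (0.75) and of Avp with the neuron markers (-0.52) passed. Counting error was small for both precursors beside the spread between libraries of a group, and the source of that spread was not tested.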

Other observations

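The likeness of the system genes to Avp between animals of the same group was described for genes that rose with restriction and for others. Over the 28 libraries other than Control M01, each minus its group mean, r with Avp was 0.57 for Pcsk1 (place 55 of 12442 genes), 0.56 for Caprin2 (place 59) and 0.44 for Pdyn (place 278), beside a 99th percentile of 0.51 over all genes. Of the genes that did not pass, Nr2f2 (0.45), Nr2f1 (0.43) and Pam (0.40) had an r near that of Pdyn. With Oxt the r of Pcsk1, Caprin2 and Pdyn was 0.44, 0.42 and 0.28. Cck, a peptide stored with oxytocin, ran against both precursors, with r = -0.55 for Avp and -0.39 for Oxt, and Penk gave -0.43 and -0.07. The orexigenic peptide Npy gave -0.50 and -0.53. These are descriptions of genes read from the same libraries, and Cck, Npy, Penk, Nr2f2, Nr2f1 and Pam were picked after their values were seen.

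Among the lineage factors, Sim1 (0.79 and 0.74), Otp (0.77 and 0.69), Sim2 (0.54 and 0.51) and Pou3f2 (0.48 and 0.66) had a positive r with Avp and Oxt, while Arnt2, which other brain cells also use, had -0.07 and 0.03. Of the astrocyte markers Gfap had 0.44 with Avp and 0.58 with Oxt, and Slc1a3 had -0.21 and -0.12. Of the microglia markers Cx3cr1 had 0.54 and 0.51, and Tmem119 had -0.07 and 0.09. Of the endothelial markers Flt1 had 0.51 and 0.57, and Pecam1 had 0.21 and 0.10. These astrocyte, microglia and endothelial genes were picked after their values were seen.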
